A study of Homo sapiens with 9 samples.

Results

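The mRNAs of 10 proteins that read or erase N6-methyladenosine (m6A) were followed in nuclear and cytoplasmic RNA after RNAi of the methyltransferase complex. The members were named by symbol: the YTH-domain readers YTHDC1, YTHDC2, YTHDF1, YTHDF2 and YTHDF3, the IGF2BP readers IGF2BP1, IGF2BP2 and IGF2BP3, and the erasers FTO and ALKBH5. They are 10 of the 56349 genes to which transcripts could be assigned, and all 10 were among the 16181 genes with enough reads to be tested. HEK293 cells, an established human embryonic kidney line, received either control siRNA or siRNAs against Virilizer (gene symbol VIRMA, also called KIAA1429) and WTAP, and RNA was taken from nuclear and cytoplasmic fractions. The labels name the line HEK293, while the study's methods describe siRNA transfection of 293T cells. Nuclear RNA was represented by 3 control and 3 WTAP/KIAA1429 RNAi samples, and cytoplasmic RNA by 1 control sample (replicate 2) and by replicates 1 and 2 of the RNAi. All of them came from 1 cell line, and the labels do not say whether the replicates were separate cultures, so p-values measure the spread between these samples, which may be technical.

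m6A is placed on nascent mRNA by a writer complex built around METTL3 and METTL14, with WTAP, VIRMA and further subunits as its regulatory part. Reader proteins bind the methylated RNA: YTHDC1 acts in the nucleus on splicing and export, the YTHDF proteins act in the cytoplasm on decay and translation, YTHDC2 is an RNA helicase, and the IGF2BP proteins stabilise and help translate their targets. FTO and ALKBH5 are oxygenases that remove the methyl group. The data below are the RNA levels of these genes and say nothing of their proteins or of methylation.

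Levels within a gene are given as CPM, the estimated counts as a share of the library after TMM scaling, which corrects for unequal composition of libraries. Levels between genes are given as TPM, which also divides by transcript length. A CPM is a share of 1 library, so less of an mRNA per cell and more of all other RNA in that fraction cannot be told apart. Differences came from 1 quasi-likelihood fit in edgeR over all 16181 genes, with Benjamini-Hochberg adjustment (FDR). A gene is said to rise or fall only where the FDR was under 0.1 and the log2 fold change was beyond 0.5, the thresholds of the study. The total of estimated counts per sample ran from 11627403 to 19036141. The 3 comparisons that use control cytoplasm share 1 unreplicated sample, whose spread was taken from the other groups.

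The RNAi targets were lower in the RNAi samples of both fractions. WTAP RNA lay between 23.0 and 27.6 CPM in control nuclei and between 12.2 and 15.6 CPM in RNAi nuclei, and fell to 30.3% of the control level in cytoplasm. VIRMA fell to 47.2% in the nucleus and to 23.8% in the cytoplasm. The marker CPM that follow are shares of the summed gene counts without TMM scaling. Of 7 listed HEK293 marker genes, NEFL was not analysed. The other 6 were present and summed to between 769 and 1710 CPM, most of it VIM (512.6 to 1315 CPM). Markers of other cell types summed to at most 0.870 CPM. The 6 nuclear long non-coding RNAs used as fraction markers summed to 560.5 to 578.2 CPM in control nuclei, 650.9 to 716.2 CPM in RNAi nuclei, 120.2 CPM in control cytoplasm and 74.0 to 93.3 CPM in RNAi cytoplasm. By these sums the cytoplasmic control lay above either RNAi cytoplasm. SNHG1 was an exception (26.37 CPM, beside 24.85 to 33.33 CPM in RNAi cytoplasm), and MEG3 was at 0 in every cytoplasmic sample. The sums were not compared after TMM scaling. The 8 cytoplasmic fraction markers summed to 81490 to 123400 CPM in control nuclei, 75670 to 108200 CPM in RNAi nuclei, 59640 CPM in control cytoplasm and 61600 to 80050 CPM in RNAi cytoplasm. Among them the mitochondrial RNA MT-CO1 was higher in every nuclear sample (41470 CPM and above) than in any cytoplasmic one (29830 CPM and below). GAPDH, ACTB, EEF1A1 and RPLP0 were higher in every cytoplasmic sample, and RPS3, MT-CO2 and MT-ND1 overlapped between the fractions. The part of these fraction differences in the results below was not tested.

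Per length, the members spanned a wide range of RNA levels. In control nuclei ALKBH5 stood first with a mean of 136.6 TPM (range 130.2 to 148.9), followed by YTHDF2 with 84.4 TPM. IGF2BP1 (49.5 TPM) and YTHDF1 (40.7 TPM) came next, and their ranges overlapped. IGF2BP2 (26.3 TPM), FTO (22.0 TPM), YTHDC1 (17.9 TPM) and IGF2BP3 (10.3 TPM) followed without overlap between neighbours. YTHDC2 (3.05 TPM) and YTHDF3 were lowest, again with overlapping ranges. The same 2 genes led and the same 2 came last in the other 3 groups. The place of YTHDF3 is uncertain, as its estimates were unstable (3.1 to 158.8 estimated counts per sample). Transcripts not assigned to a gene were also left out of the totals. FTO stood above IGF2BP2 in the cytoplasm of control (38.0 and 34.7 TPM) and RNAi cells (43.5 and 26.0 TPM), the reverse of their order in control nuclei, whereas in RNAi nuclei the ranges of these genes overlapped (26.9 and 26.2 TPM).

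**Figure D1:**
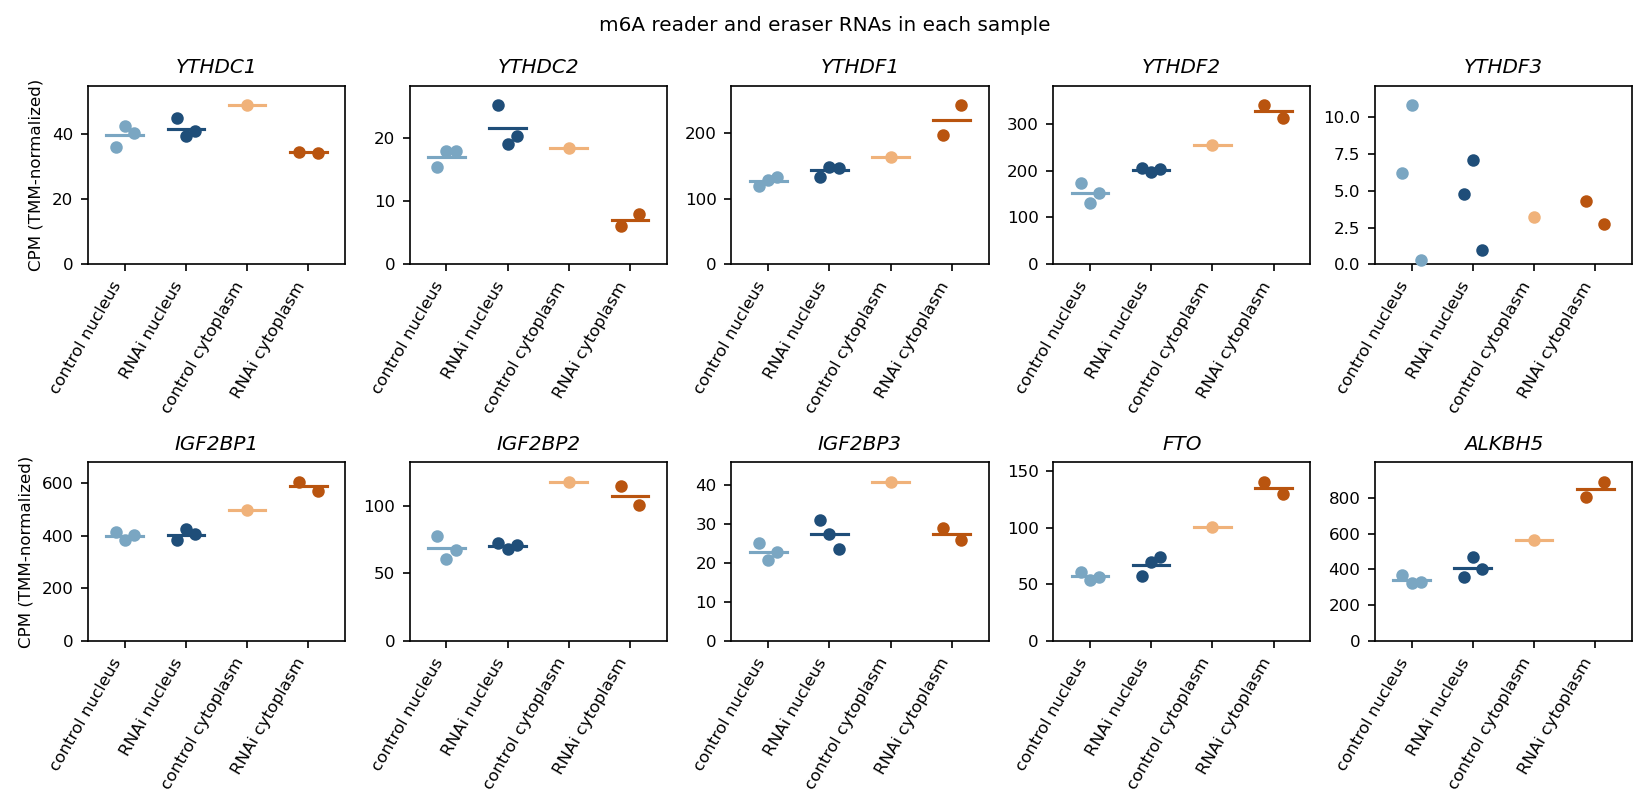
TMM-normalized CPM (vertical axes, from 0) of each of the 10 genes in the 9 samples, by group. Points are samples and lines are group means (none for YTHDF3, whose estimates were unstable), and YTHDC2 in RNAi cytoplasm (6.08 and 7.98 CPM) lies below all other samples.

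Between RNAi and control nuclei, none of the 10 members passed both thresholds (4.89% of all tested genes did). At an unadjusted p under 0.05 there were 3 (YTHDC2, YTHDF2 and ALKBH5), beside 3370 of all 16181 genes. DESeq2's Wald test and limma also called 0 members. With limma 152 of all genes were higher and 22 lower, and the share for the Wald test is not given here. The median log2 difference of the members was 0.20, beside -0.001 over all tested genes. In the cytoplasm 4 members passed, beside 24.6% of all genes: YTHDC1, YTHDC2 and IGF2BP3 fell (14.2% of all genes did) and ALKBH5 rose (10.4%). The nuclear/cytoplasmic ratio in control cells differed from 1 for 5 members, beside 50.8% of all genes, and all 5 (YTHDF2, IGF2BP2, IGF2BP3, FTO and ALKBH5) were lower in the nucleus, which was so for 22.7% of all genes. After RNAi it did so for 7 members, beside 57.8% of all genes. Here YTHDC2 was higher in the nucleus (32.9% of all genes were) and YTHDF1, YTHDF2, IGF2BP1, IGF2BP2, FTO and ALKBH5 were lower (24.9%). The change of the ratio itself passed for 3 members, beside 18.2% of all genes, and all 3 (YTHDC1, YTHDC2 and IGF2BP3) were higher after RNAi, which was so for 10.4% of all genes. Samples of the groups compared did not overlap for 2 members in the nucleus (28.1% of all genes), 9 in the cytoplasm (79.6%), 9 between the control fractions (81.8%) and 8 between the RNAi fractions (76.2%).

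The scaling of the cytoplasmic libraries bears on these counts. With library sizes in place of TMM, the median of all genes moved to -0.24 for the cytoplasmic change, 0.31 for the RNAi nuclear/cytoplasmic ratio and 0.23 for the change of the ratio. The higher calls among all genes then made up 11.9% of the calls in the cytoplasm (42.1% with TMM), 75.5% for the RNAi ratio (56.9%) and 93.2% for the change of the ratio (56.9%). This shift ran in the direction of the 3 falls in the cytoplasm and the 3 raised ratios of members. Limma on log2(TPM + 1) moved the 3 medians likewise, to -0.158, 0.315 and 0.21. Of its calls among all genes 6.6%, 83.3% and 97.2% were higher. That these calls passed with library sizes, and some of them with limma, is therefore no test of their hold under another scaling. The shift ran against the rise of ALKBH5, which kept its sign but did not pass.

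**Figure D2:**
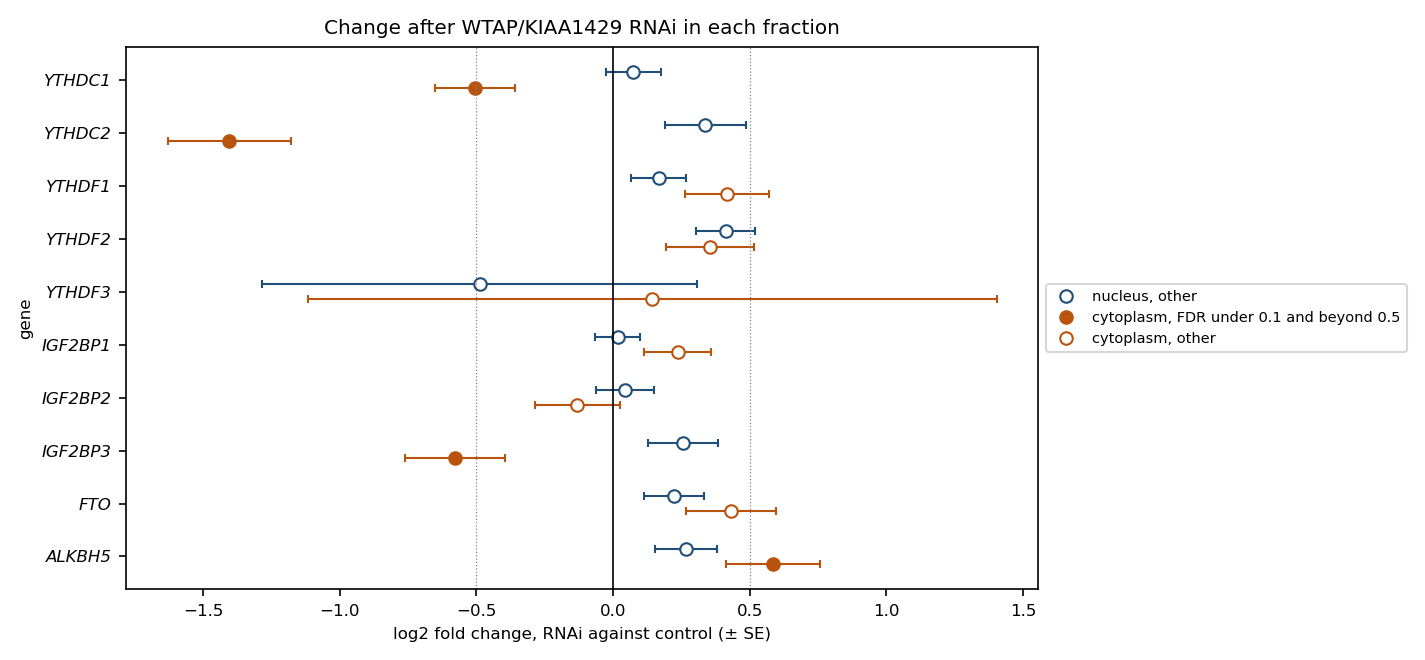
Log2 fold change after WTAP/KIAA1429 RNAi (horizontal axis, ± SE of the edgeR fit) of each gene in the nucleus (blue) and the cytoplasm (orange). Filled points passed an FDR under 0.1 and a log2 change beyond 0.5 (dotted lines), and only cytoplasmic points of YTHDC1, YTHDC2, IGF2BP3 and ALKBH5 are filled.

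YTHDC1, the nuclear reader, had 36.1, 42.5 and 40.3 CPM in the control nuclei and 44.8, 39.4 and 40.8 CPM in the RNAi nuclei. The cytoplasmic samples had 48.9 CPM in the control and 34.6 and 34.2 CPM after RNAi. Nuclear values overlapped, and both RNAi cytoplasmic samples lay below every other sample. The nuclear log2 difference was 0.07 ± 0.10 (SE, FDR = 0.717). In the cytoplasm YTHDC1 fell to 70.4% of the control level (log2 fold change -0.51 ± 0.15, FDR = 0.0360). As fitted, this change lies at the fold threshold. The estimate was -0.49 with DESeq2 size factors and -0.50 without RNAi nuclear replicate 1 or 3, which ended the call. The fall was larger, and called, with the length offset (-0.67), library sizes (-0.76) and limma (-0.86). The log2 nuclear/cytoplasmic ratio was -0.30 ± 0.14 in control cells and 0.28 ± 0.11 after RNAi, and neither passed both thresholds. The ratio after RNAi was larger and called with library sizes (0.55), the length offset (0.61) and limma (0.97). The difference between the control and RNAi ratios passed both, at 0.58 ± 0.18 (FDR = 0.0606). It did not pass in 5 of the 8 fits that left out 1 sample (without control nuclear replicate 3, RNAi cytoplasmic replicate 1 or 2, or RNAi nuclear replicate 1 or 3), where the FDR was between 0.101 and 0.125, while the estimate stayed between 0.52 and 0.64, nor without the filter (FDR = 0.118) or with limma (FDR = 0.118).

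Transcript estimates separated the YTHDC1 RNAs more sharply than the gene total did. YTHDC1-205, a 689-nt transcript annotated as protein-coding, consists to 66.6% (459 nt) of sequence that is part of intron 15, the last intron, of the main transcript YTHDC1-202. It was estimated at 3.72, 4.03 and 3.40 TPM in the control nuclei and at 3.63, 3.87 and 3.83 TPM in the RNAi nuclei, and was listed at 0 in all 3 cytoplasmic samples. The transcript differed between nucleus and cytoplasm in control cells (FDR = 0.00493) and after RNAi (FDR = 0.000964). It reached the 10 estimated counts in 3 or more samples needed for testing only through nuclear samples. These FDR values are therefore no independent support for the difference. These values rest on 18.3 to 27.8 estimated counts per nuclear sample. In the nuclei YTHDC1-205 made up 20.7% (control) and 20.6% (RNAi) of the TPM of the gene, which divides by length and so weighs a short transcript up. Of the reads it held little: mean estimated counts were 24.0 of 535.0 for the gene in control nuclei and 23.5 of 543.8 in RNAi nuclei. The border at which this transcript passes from exon into intron lies on chromosome 4 and is shown because reading across it distinguishes the intronic transcript from the spliced one; the last bases of the exon are in capitals and the first bases of the intron, the 5′ splice site, in lower case.
YTHDC1-205 (chr4:69182017-69182046, GRCh37, minus strand): AGAGATAAACGAGTAgtaagtgcacaagga

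The spliced YTHDC1-202 had 4.98 to 7.74 TPM in control nuclei, 6.39 to 7.62 TPM in RNAi nuclei, 8.99 TPM in control cytoplasm and 4.78 and 4.89 TPM in RNAi cytoplasm. Its cytoplasmic level after RNAi was 61.6% of the control (FDR = 0.247, 44726 transcripts tested), so the fall seen for the gene did not pass for this transcript alone. YTHDC1-204, an annotated retained-intron transcript with 257 nt of intron 10, was higher in the nucleus than in the cytoplasm after RNAi (FDR = 0.0425) and did not pass in control cells (FDR = 0.263). It too had enough counts to be tested only through nuclear samples.

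YTHDC2, the helicase of the family, had the largest change of the members that passed the test. The control nuclei had 15.4, 17.9 and 17.9 CPM and the RNAi nuclei 25.2, 19.0 and 20.3 CPM. In the cytoplasm the control had 18.4 CPM and the RNAi samples had 6.08 and 7.98 CPM. All RNAi nuclei lay above all control nuclei, and the RNAi cytoplasmic samples lay far below every other sample. Such separation of the nuclear groups, in this direction, occurred for 14.3% of all genes (among the members, for YTHDC2 and YTHDF2). The nuclear difference did not pass (log2 0.34 ± 0.15, FDR = 0.223). The cytoplasmic fall did, to 37.8% of the control (log2 fold change -1.40 ± 0.23, FDR = 0.00340).

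The log2 nuclear/cytoplasmic ratio of YTHDC2 was -0.12 ± 0.20 in control cells (FDR = 0.664) and 1.63 ± 0.19 after RNAi (FDR = 4.89e-05). The ratio rose by 1.74 ± 0.27 on the log2 scale (FDR = 0.00514). This change passed in each of the 8 fits without 1 sample (1.55 to 1.98) and in each of the 7 alternative fits (1.27 to 2.02). Of the latter, the fits with library sizes and limma are no test, because the shift of all genes ran the same way. Its main transcript, the 6316-nt YTHDC2-201, was at 2.69 TPM in control cytoplasm and 0.722 and 0.927 TPM in RNAi cytoplasm. It had 2.04, 2.59 and 2.54 TPM in control nuclei and 3.39, 2.82 and 3.02 TPM in RNAi nuclei. Among the 33 member transcripts that passed the filter, of 76 listed, YTHDC2-201 was the only one called in the cytoplasm (FDR = 0.0669, where 2.84% of all transcripts were called and 1.68% were lower). It was also the only one called for the ratio (FDR = 0.0979, where 1.03% were called and 0.637% were higher), a call lost in 7 of the 8 fits without 1 sample, all but the fit without RNAi cytoplasmic replicate 2.

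**Figure D3:**
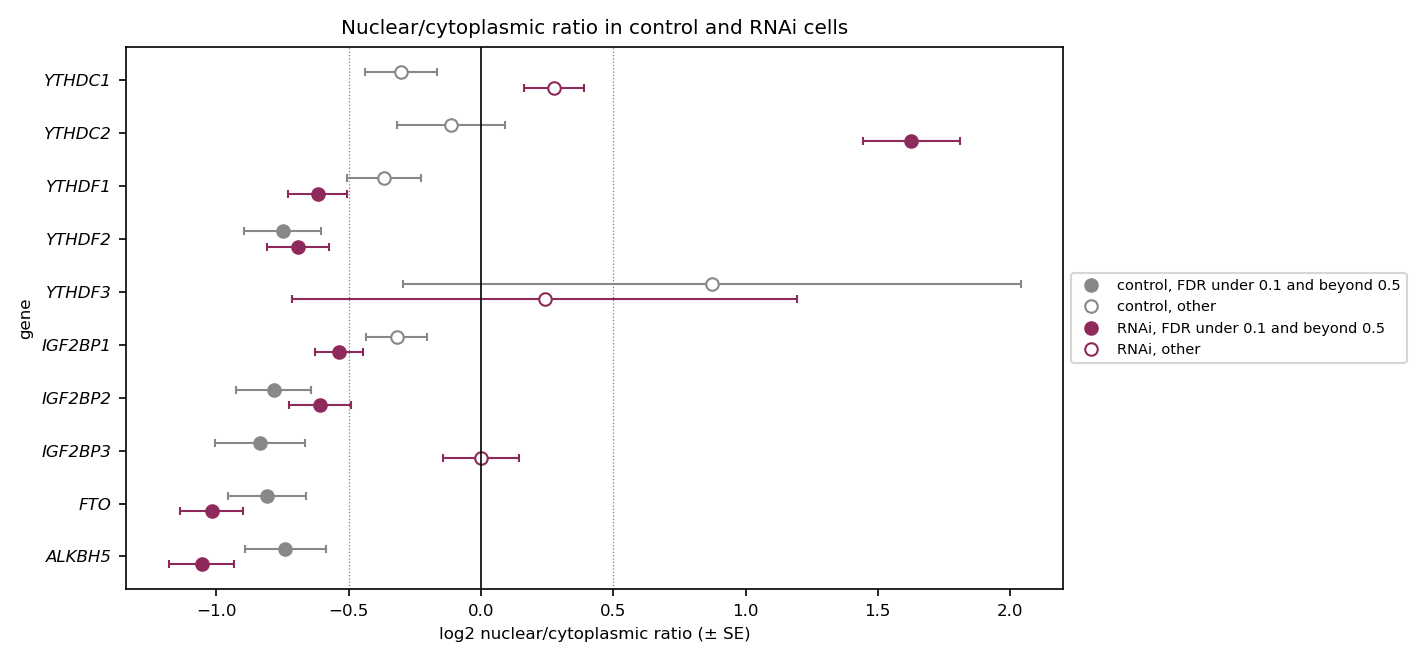
Log2 nuclear/cytoplasmic ratio (horizontal axis, ± SE of the edgeR fit) of each gene in control (grey) and RNAi (purple) cells. Filled points passed an FDR under 0.1 and a log2 ratio beyond 0.5 (dotted lines), and YTHDC2 moves from -0.12 to 1.63 and IGF2BP3 from -0.84 to the zero line.

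YTHDF1 and YTHDF2, cytoplasmic readers linked to translation and decay, were more abundant in the cytoplasm. YTHDF1 had 119.6, 128.3 and 133.5 CPM in control nuclei, 133.1, 147.9 and 147.2 CPM in RNAi nuclei, 163.9 CPM in control cytoplasm and 196.2 and 242.1 CPM in RNAi cytoplasm. Its nuclear groups overlapped and the cytoplasmic samples were the 3 highest. The differences after RNAi were 0.17 ± 0.10 in the nucleus (FDR = 0.378) and 0.42 ± 0.15 in the cytoplasm (FDR = 0.0794), the second below the fold threshold. With library sizes in place of TMM, the cytoplasmic value was 0.15. The log2 nuclear/cytoplasmic ratio was -0.37 ± 0.14 in control cells, short of the fold threshold, and -0.62 ± 0.11 after RNAi, which passed (FDR = 0.000851). That call was lost without RNAi cytoplasmic replicate 2 (-0.43), with library sizes (-0.34) and with limma (-0.21). The change of the ratio did not pass (-0.25 ± 0.18, FDR = 0.401) and was 0.04 with library sizes.

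YTHDF2 had 173.5, 129.8 and 152.4 CPM in control nuclei and 206.5, 197.2 and 202.5 CPM in RNAi nuclei. Control cytoplasm had 255.2 CPM and RNAi cytoplasm 339.7 and 312.7 CPM. The RNAi nuclei lay above the control nuclei without overlap. The nuclear difference passed the FDR but not the fold threshold (log2 0.41 ± 0.11, FDR = 0.0642). Without control nuclear replicate 1 it passed both (0.52, FDR = 0.0246). The cytoplasmic difference was 0.35 ± 0.16 (FDR = 0.153). The log2 ratio was -0.75 ± 0.15 in control cells (FDR = 0.00216) and -0.69 ± 0.12 after RNAi (FDR = 0.000631, no longer called with library sizes, -0.42, or limma, -0.38). Their difference was 0.06 ± 0.19 (FDR = 0.881).

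YTHDF2-206, a 2594-nt transcript without an annotated coding sequence, holds the whole 510-nt intron 1 of the coding transcript YTHDF2-201. It had 9.35, 5.25 and 9.39 TPM in control nuclei and 14.4, 10.8 and 11.6 TPM in RNAi nuclei, against 1.25 TPM in control cytoplasm and 0.788 and 1.20 TPM in RNAi cytoplasm. All nuclear samples lay above all cytoplasmic ones. It was higher in the nucleus by 2.61 ± 0.59 on the log2 scale in control cells (FDR = 0.0210) and by 3.28 ± 0.46 after RNAi (FDR = 0.00201), opposite to the gene total. The difference between RNAi and control nuclei did not pass (0.53 ± 0.35, FDR = 0.705). The exon and intron border of this transcript is printed as for YTHDC1-205, with the exon in capitals.
YTHDF2-206 (chr1:29063645-29063674, GRCh37, plus strand): AGCCTCTTGGAGCAGgtacaggcccggccc

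YTHDF2-203, a short coding transcript of 864 nt, was estimated at 32.2, 17.7 and 29.1 TPM in control nuclei and at 58.8, 49.9 and 63.3 TPM in RNAi nuclei. The change did not pass over all transcripts (log2 1.06 ± 0.29, FDR = 0.291), where edgeR called 0 of 44726. DESeq2's Wald test called this transcript (FDR = 0.0139), and the share of all transcripts which that test called is not given here. YTHDF2-203 has a first exon of its own and otherwise lies within exons of the full-length YTHDF2-201, and salmon divides the shared reads between them. YTHDF2-201 was 37.03 to 40.4 TPM in control nuclei and 41.0 to 52.4 TPM in RNAi nuclei (FDR = 0.523).

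**Figure D4:**
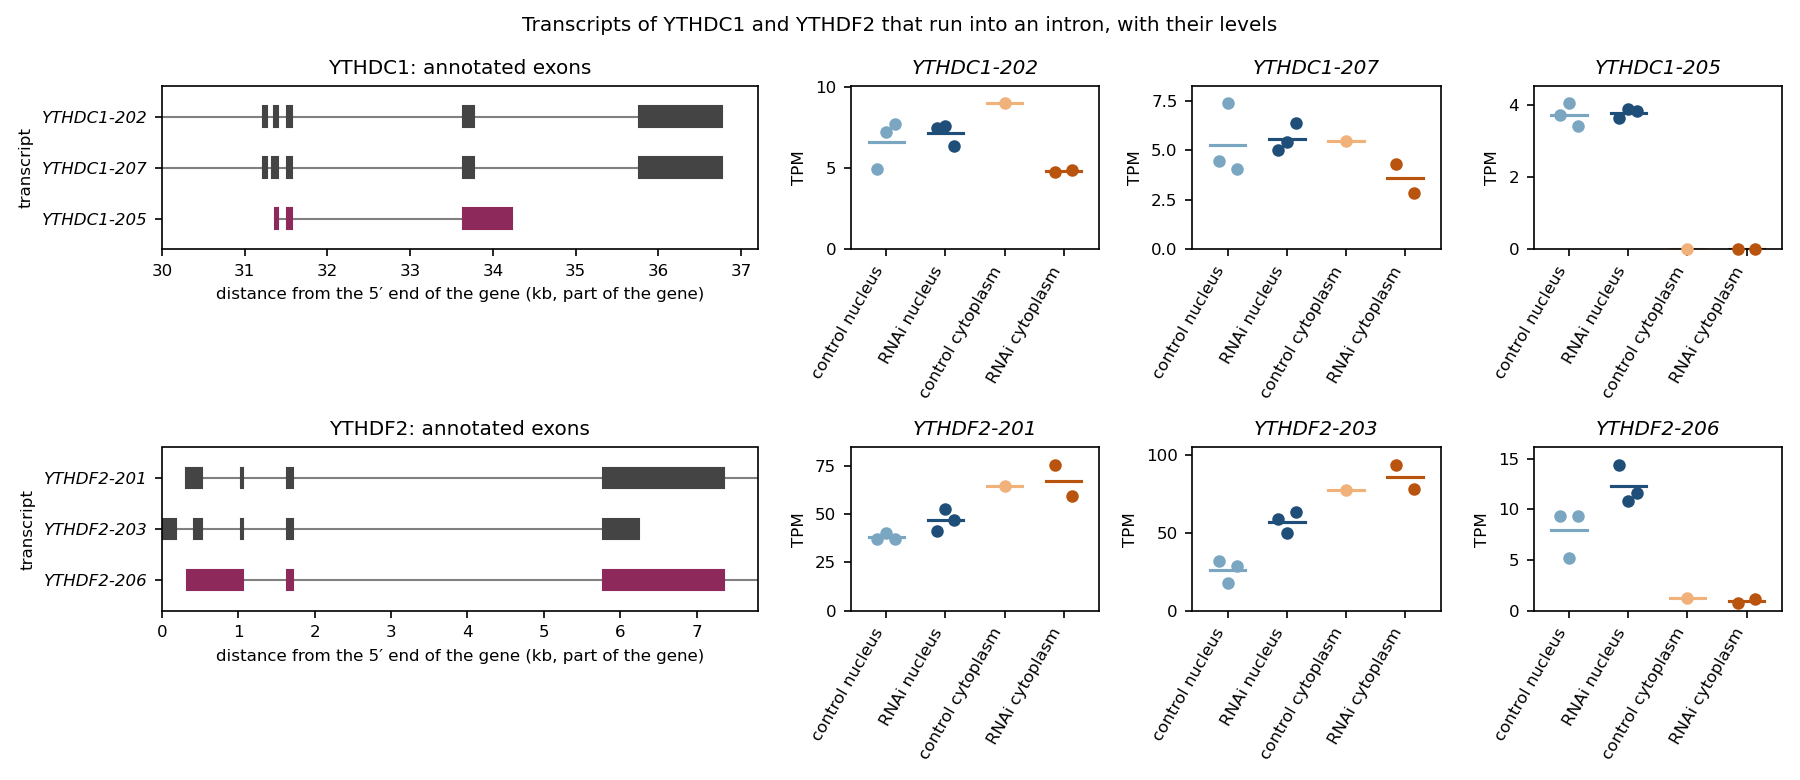
Annotated exons (boxes, left; distance from the 5′ end of the gene in kb, part of each gene shown) of 3 transcripts each of YTHDC1 and YTHDF2, and their TPM (right, from 0) by group. The transcripts that run into an intron, in purple, are seen in all 6 nuclear samples and are at 0 (YTHDC1-205) or at most 1.25 TPM (YTHDF2-206) in the cytoplasmic ones.

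YTHDF3, the third cytoplasmic YTHDF reader, could not be measured reliably. Its estimated counts were 91.0, 158.8 and 3.1 in the control nuclei, 69.5, 76.9 and 12.7 in the RNAi nuclei, 52.8 in control cytoplasm and 54.5 and 25.0 in RNAi cytoplasm. The main transcript YTHDF3-205 was listed at 0 in control nuclear replicate 3 and in RNAi nuclear replicate 3. All groups overlapped the control nuclei, and the standard errors of the log2 differences ran from 0.797 to 1.496. Transcripts that could not be assigned to a gene were left out of the gene total, and their part in this was not tested.

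Among the IGF2BP readers, IGF2BP3 passed the test for the cytoplasmic change and the change of the ratio, and IGF2BP1 and IGF2BP2 did not. Differences between the 3 genes were not tested. IGF2BP1 had 413.6, 383.8 and 403.8 CPM in control nuclei, 384.4, 425.6 and 405.6 CPM in RNAi nuclei, 499.5 CPM in control cytoplasm and 606.9 and 569.8 CPM in RNAi cytoplasm. In the nucleus the groups overlapped (log2 0.02 ± 0.08, FDR = 0.936), and the cytoplasmic difference of 0.24 ± 0.12 did not pass (FDR = 0.207) and was -0.02 with library sizes in place of TMM. Its log2 nuclear/cytoplasmic ratio was -0.32 ± 0.11 in control cells, below the fold threshold but called with the length offset (-0.72) and limma (-0.61), and -0.54 ± 0.09 after RNAi, the latter called (FDR = 0.000566) close to the fold threshold. That call was lost without control nuclear replicate 1, RNAi cytoplasmic replicate 1 or RNAi nuclear replicate 1 (-0.50 to -0.49), with library sizes or limma (both -0.26) and with only the groups compared (-0.49).

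IGF2BP2 had 77.4, 60.9 and 67.2 CPM in control nuclei and 72.6, 68.1 and 71.1 CPM in RNAi nuclei. The cytoplasm had 118.0 CPM in the control and 114.5 and 100.9 CPM after RNAi. Nuclear values again overlapped, and every cytoplasmic sample lay above every nuclear one. It was lower in the nucleus both in control cells (log2 ratio -0.78 ± 0.14, FDR = 0.00145) and after RNAi (-0.61 ± 0.12, FDR = 0.00121). The first was not called with the length offset (-0.49) or limma (-0.39), and the second with library sizes (-0.34), the length offset (-0.41) or limma (0.03, the opposite sign). The change after RNAi was 0.04 ± 0.11 in the nucleus and -0.13 ± 0.16 in the cytoplasm, and the change of the ratio was 0.17 ± 0.19 (FDR = 0.587). Its transcript IGF2BP2-204 was at 6.54 to 7.31 TPM in control nuclei and at 9.08 to 11.7 TPM in RNAi nuclei. This difference did not pass with edgeR (FDR = 0.376) and passed with DESeq2's Wald test (FDR = 0.0590, the share called over all transcripts not given here).

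IGF2BP3 had 25.1, 20.9 and 22.8 CPM in control nuclei and 31.0, 27.4 and 23.7 CPM in RNAi nuclei. The cytoplasm had 40.9 CPM in the control and 28.9 and 25.8 CPM after RNAi. In CPM the nuclear groups overlapped, and the control cytoplasm stood above all other samples. In the cytoplasm it fell to 67.0% of the control (log2 fold change -0.58 ± 0.18, FDR = 0.05004), a call lost without RNAi cytoplasmic replicate 2 (FDR = 0.139), with the length offset (FDR = 0.134) and with limma (FDR = 0.117). Nuclear IGF2BP3 differed by 0.26 ± 0.13 (FDR = 0.283). The nuclear estimate was larger with the length offset (0.532) and limma (0.545), and no alternative fit called it. In TPM the RNAi nuclei (13.48 to 17.05) lay above the control nuclei (9.49 to 10.9) without overlap, and control cytoplasm was at 15.21.

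In control cells the log2 nuclear/cytoplasmic ratio of IGF2BP3 was -0.84 ± 0.17 (FDR = 0.00269, and 0.109 with limma). After RNAi the fractions differed by less than the SE of 0.14 (FDR = 0.998). The ratio rose by 0.84 ± 0.22 on the log2 scale (FDR = 0.0392). This rise passed in each of the 8 fits without 1 sample (0.73 to 0.96) and in the 7 alternative fits (0.84 to 1.28). As for YTHDC2, the fits with library sizes and limma are no test here. IGF2BP3-206, a retained-intron transcript, was listed at 0 in control cytoplasm and was at most 0.0638 TPM in RNAi cytoplasm, against 0.207 to 0.309 TPM in control nuclei and 0.480 to 0.512 TPM in RNAi nuclei. It was called higher in the nucleus in control (FDR = 0.00997) and RNAi cells (FDR = 0.00729), on 6.7 to 20.3 estimated counts per nuclear sample. Only nuclear samples gave it enough counts to be tested, so these FDR values are no independent support.

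The erasers FTO and ALKBH5 were both lower in the nucleus than in the cytoplasm, in control cells and after RNAi. FTO had 61.1, 53.6 and 56.7 CPM in control nuclei and 57.3, 69.3 and 73.7 CPM in RNAi nuclei. The cytoplasm had 100.2 CPM in the control and 140.7 and 129.6 CPM after RNAi. There was overlap between the nuclear groups, and the RNAi cytoplasmic samples were the highest. The nuclear difference did not pass (0.22 ± 0.11, FDR = 0.279), and the cytoplasmic one passed the FDR but not the fold threshold (0.43 ± 0.17, FDR = 0.0910). With library sizes the cytoplasmic difference was 0.18 (FDR = 0.642) and with limma 0.18 (FDR = 0.759). The log2 nuclear/cytoplasmic ratio was -0.81 ± 0.15 in control cells (FDR = 0.00151) and -1.02 ± 0.12 after RNAi (FDR = 6.16e-05).

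ALKBH5 had 368.1, 323.0 and 327.5 CPM in control nuclei and 356.1, 470.6 and 400.6 CPM in RNAi nuclei. Control cytoplasm had 566.6 CPM and RNAi cytoplasm 808.4 and 892.7 CPM. Its nuclear groups overlapped, and the cytoplasm exceeded the nucleus throughout. In the cytoplasm ALKBH5 rose to 150.1% of the control (log2 fold change 0.59 ± 0.17, FDR = 0.0375). That call was lost without RNAi cytoplasmic replicate 2 (0.46, FDR = 0.165) and with library sizes in place of TMM (0.32, FDR = 0.354), and with limma (0.295, FDR = 0.5998). The nuclear difference was 0.27 ± 0.11 (FDR = 0.210). The log2 ratio was -0.74 ± 0.15 in control cells (FDR = 0.00302) and -1.06 ± 0.12 after RNAi (FDR = 5.91e-05). The change of the ratio passed for neither eraser (FTO -0.21 ± 0.20, ALKBH5 -0.32 ± 0.20), and with library sizes it was 0.08 for FTO and -0.02 for ALKBH5.

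The coding transcript ALKBH5-201 carried 88.5% of the TPM of the gene in control nuclei and 97.9% in RNAi cytoplasm, and was lower in the nucleus in control cells (56.0% of the cytoplasmic level, FDR = 0.0140) and after RNAi (47.9%, FDR = 0.00142). The retained-intron transcript ALKBH5-202, with 254 nt of intron 2, had the opposite distribution. It was at 1.08, 1.81 and 1.76 TPM in control nuclei and at 0.877, 1.85 and 1.19 TPM in RNAi nuclei. Control cytoplasm was listed at 0 and RNAi cytoplasm had 0.149 and 0.441 TPM, below every nuclear sample. The nuclear excess passed in control (FDR = 0.00854) and RNAi cells (FDR = 0.0607). The border at which this transcript passes from intron into exon, a 3′ splice site, is shown with the intron in lower case and the exon in capitals.
ALKBH5-202 (chr17:18110114-18110143, GRCh37, plus strand): atgtttcctttgcagGACAAGATTAGATGC

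Over the member transcripts as a whole, 11 of the 33 tested differed between nucleus and cytoplasm in control cells, beside 32% of all transcripts. Of these, 4 were higher in the nucleus (21% of all transcripts were) and 7 lower (11%). After RNAi 15 differed, beside 43.6% of all transcripts, with 6 higher (28.6%) and 9 lower (15%). Among those higher in the nucleus, YTHDC1-204, YTHDC1-205, IGF2BP3-206 and ALKBH5-202 met the filter only through nuclear samples.

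Of the 10 m6A writer genes, which deposit the mark, WTAP and VIRMA, the siRNA targets, fell in the nucleus as stated, and ZC3H13 (log2 fold change 0.95, FDR = 0.0839) and CBLL1 (0.51, FDR = 0.0638) rose, while the catalytic METTL3 did not pass in either fraction (0.17 and -0.13). These 4 calls stand beside 4.89% of all genes. In the cytoplasm 4 writers fell (WTAP, VIRMA, ZC3H13 by 1.90 and METTL14 by 0.72 on the log2 scale), of which 2 are the siRNA targets, and RBM15 and PCIF1 rose, beside 14.2% of all genes lower and 10.4% higher. The ratio of 3 writers rose, WTAP among them, beside 10.4% of all genes (ZC3H13 by 2.85, WTAP by 0.89 and METTL14 by 0.83), and that of PCIF1, the cap-adjacent adenosine methyltransferase, fell by 0.64.

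Among 7 other RNA-binding proteins associated with m6A, no gene passed in the nucleus. At an unadjusted p under 0.05 there was 1, beside 3370 of all 16181 genes. In the cytoplasm FMR1, EIF3A and HNRNPA2B1 fell (log2 fold change -1.10, -1.14 and -0.66), beside 14.2% of all genes. The ratio of these 3 rose by 1.22, 1.38 and 0.51, beside 10.4% of all genes. Of 10 partner proteins of the readers, none passed in the nucleus, with 2 at an unadjusted p under 0.05 (beside the same 3370 genes). In the cytoplasm XRN1, MATR3, RIDA and SRSF10 fell (14.2% of all genes did) and UPF1 rose (10.4%). XRN1, the cytoplasmic 5′ to 3′ exonuclease, had the largest ratio change of the 10 (2.29 ± 0.42, FDR = 0.00976). Among 7 paralogs of the erasers in the AlkB family, ALKBH2 rose in the nucleus (0.54, beside 4.89% of all genes called), and ALKBH2, ALKBH4 and ALKBH7 rose while ALKBH8 fell in the cytoplasm (-1.29), beside 10.4% and 14.2% of all genes.

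Profiles of the members were compared over the 9 samples, which share fraction and library, so the following r values of log2 CPM are descriptions. FTO had r = 0.98 with the reader IGF2BP1 and 0.978 with ALKBH5. ALKBH5 had r = 0.968 with IGF2BP1 and 0.955 with YTHDF1, so the likeness was not particular to the 2 erasers. Within the IGF2BP family r was 0.893 for IGF2BP1 and IGF2BP2, 0.707 for IGF2BP2 and IGF2BP3 and 0.397 for IGF2BP1 and IGF2BP3. YTHDC2 ran opposite to IGF2BP1 (r = -0.889), ALKBH5 (-0.829) and FTO (-0.827), and with YTHDC1 (0.772). Over all tested genes, the profile most like that of YTHDC2 belonged to DNAJC2 (r = 0.985), then NAPEPLD and FUBP1. Genes with r over 0.9 numbered 304 for YTHDC2, 19 for YTHDC1 and 40 for IGF2BP3, whereas IGF2BP1 had 1235, FTO 1161 and ALKBH5 1109. The nearest profiles were those of MASTL for YTHDC1 (0.954), SP3 for IGF2BP3 (0.960), SF3A1 for IGF2BP1 (0.997), ALDH1B1 for FTO (0.992) and PYGO2 for ALKBH5 (0.994).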

How the data were processed

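RNA of 9 fractions was sequenced from SENSE mRNA libraries. Per the labels and the methods, the authors trimmed reads with cutadapt and quantified Ensembl transcripts of hg19 with salmon (version not given in the sources used here). The files the authors deposited give each transcript an estimated count, not normalized between samples, and a TPM value, which salmon divided by effective length and scaled to the same total. The deposited effective lengths, in nucleotides, entered the length offset as another measure. Of 215170 transcripts, 183122 (85.1%) were assigned to genes of GENCODE release 44 on GRCh37, the build of hg19, which held 83.07% to 88.31% of the reads of each library. Counts were added up within each gene and rounded.

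edgeR 4.0.16 in R 4.3.3 fitted 4 groups with TMM and the quasi-likelihood test, without a replicate block, to the 16181 genes (44726 transcripts) that reached 10 estimated counts in 3 or more samples. The standard error is the log2 fold change divided by the square root of F. At the depths reached, 3 counts are 0.190 to 0.303 CPM without TMM scaling. Across genes, replicates correlated at r = 0.972 or above and differed by more than counting noise. Samples were grouped by siRNA and fraction as labelled. Alternatives were DESeq2 1.42.0 (size factors and Wald test), library size only, no filter, the length offset, limma 3.58.1 on log2(TPM + 1), the replicate block, each sample left out, only the groups compared, FDR under 0.05 and no minimum fold change. The code was tested on simulated counts. Named were all members, their transcripts by share of the gene's TPM, WTAP, VIRMA and, per list, up to 4 genes called for the ratio with the smallest p. METTL3, CBLL1, RBM15, RIDA, ALKBH2, ALKBH4 and ALKBH7 were named after their values were seen. The members and lists were chosen with earlier results of these data known. Sequences were read from the GRCh37 genome.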

Additional observations from a re-analysis of the deposited data

Results flagged for a closer look

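For 3 of the 10 members WTAP/KIAA1429 RNAi had unequal effects in the 2 fractions, by the interaction term of the edgeR fit, beside 18.2% of all genes. The nuclear effect exceeded the cytoplasmic one by 1.74 on the log2 scale for YTHDC2 (FDR = 0.00514), by 0.835 for IGF2BP3 (FDR = 0.0392) and by 0.58 for YTHDC1 (FDR = 0.0606). The YTHDC1 call was lost in 5 of the 8 fits without 1 sample, without the filter and with limma. In each case the cytoplasm fell and the nuclear change did not pass the test. All 3 values rest on 1 control cytoplasmic sample. Its nuclear marker RNAs, summed without TMM scaling, were higher (120.2 CPM) than those of the RNAi cytoplasmic samples (at most 93.3 CPM). The part of this difference was not tested.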

How the results depend on the processing

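No fit without the control cytoplasmic sample is possible for the comparisons that use it. Over the 10 members and 5 comparisons, fits without 1 sample kept the direction and the side of the thresholds in 390 cases, reversed 15, gained 2 calls and lost 13. The other alternatives did so in 423, 27, 17 and 23 cases. The number of members called ranged from 0 to 1 in the nucleus without 1 sample (1 without control nuclear replicate 1), and was 1 with no minimum fold change. In the cytoplasm it ranged from 2 (without RNAi cytoplasmic replicate 2) to 5, and was 2 with limma on TPM. It was 8 in the control nuclear/cytoplasmic ratio with no minimum fold change and 4 in the RNAi ratio with library sizes. In that last fit 6456 of all genes were higher and 2090 lower, and limma called 1495 of all genes in the cytoplasm. For the other settings the share of all genes is not given here, so these member counts stand without a background. Member transcripts called with DESeq2's Wald test numbered 2 in the nucleus and 3 for the ratio change, and the share of all transcripts it called is not given here. For the ratio change the number of member transcripts called was 0 with DESeq2 size factors, no filter, limma, the replicate block or FDR under 0.05, and 0 to 1 without 1 sample. Calls among all genes ranged from 52 to 1306 in the nucleus (792 as reported), from 1495 to 4719 in the cytoplasm (3983) and from 1074 to 4038 for the ratio change (2953). The cause of these differences was not tested.

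Signs that reversed belonged to differences that did not pass as reported, except for IGF2BP2 after RNAi. With library sizes, the ratio change was 0.039 for YTHDF1, 0.068 for IGF2BP1 and 0.083 for FTO, the cytoplasmic change -0.103 for YTHDF3 and -0.02 for IGF2BP1, and the RNAi ratio of IGF2BP3 0.266. With limma, the ratio change was 0.094 for YTHDF1, 0.014 for YTHDF3, 0.349 for IGF2BP1 and 0.097 for FTO, the cytoplasmic change -0.197 for YTHDF3 and -0.244 for IGF2BP1, the control ratio 0.063 for YTHDC1 and 0.082 for YTHDC2, and the RNAi ratio 0.025 for IGF2BP2 and 0.754 for IGF2BP3, which then passed. With the length offset, the nuclear change was -0.022 for YTHDC1 and -0.089 for IGF2BP2, the control ratio of YTHDC2 0.009, the cytoplasmic change of YTHDF3 -0.228, the ratio change of IGF2BP1 0.016 and the RNAi ratio of IGF2BP3 0.397. Without the filter the nuclear change of IGF2BP1 was -0.018. The RNAi ratio of IGF2BP3, at 0 as reported, was 0.002 with DESeq2 (size factors or Wald), 0.052 with only the groups compared and 0.048 with the replicate block. Without 1 sample, it ranged from -0.09 to 0.106, the ratio change from -0.047 to 0.217 for YTHDF2 and from -1.17 to 0.147 for YTHDF3, the nuclear change from -1.03 to 0.296 for YTHDF3, from -0.018 to 0.056 for IGF2BP1 and from -0.035 to 0.139 for IGF2BP2, and for YTHDF3 the cytoplasmic change from -0.238 to 0.359 and the RNAi ratio from -0.295 to 0.744.

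Deviations from the group mean correlated weakly between samples of the same replicate number (0.185, 0.11 and 0.042 between the nuclei, 0.1 and 0.037 between the RNAi fractions). With 2 or 3 samples per group, these values cannot show whether the samples were paired. With the replicate block the members called were 0 in the nucleus, 4 in the cytoplasm (YTHDF1 gained at 0.505, YTHDC1 lost at -0.50), 6 (YTHDF3 gained) and 7 for the control and RNAi ratios and 3 for the ratio change. Of all genes the replicate block called 4719 in the cytoplasm and 4038 for the ratio change, more than as reported. Its calls among all genes in the other comparisons are not given here. YTHDF3 rests on 3.1 to 158.8 estimated counts per sample, and the cause of this spread was not tested.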
